A study of Mus musculus with 18 samples.

Results

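The core islet transcription factors described here are 10 genes, Pdx1, Mnx1, Nkx6-1, Nkx2-2, Neurod1, Insm1, Pax6, Isl1, Rfx6 and Foxa2, out of 53801 mouse genes in the count tables. They were taken by gene symbol from a list of named factors. The rule uses no measured value, though earlier results of these data were known when the list was written. All 10 passed the filter on low counts, as did 18364 genes in all. RNA-seq was done on whole islets isolated from 5-week-old mice kept on normal chow. Male mice heterozygous for the S64F variant of MafA (S64F/+) gave 4 libraries and male wild-type (WT) mice 4, and the same 2 genotypes in females gave 5 libraries each. MafA is a basic leucine zipper transcription factor of beta cells that activates the insulin genes, and S64F exchanges a serine for a phenylalanine in it. The series' title names it a variant of MODY, a dominantly inherited form of diabetes, and places the beta-cell dysfunction mainly in males. How the allele was made is not given in the sources used here, and each gene count sums both alleles.

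Transcription factors of this kind bind each other's genes as well as those of the islet hormones, and together they set up and then hold the identity of endocrine cells. Pdx1, Nkx6-1 and Mnx1 are mainly factors of beta cells in adult mouse islets, whereas Pax6, Isl1, Neurod1, Insm1, Rfx6 and Foxa2 are also made by alpha cells and other endocrine cells. Nkx2-2 is present in beta, alpha and PP cells. Several of the human orthologues are diabetes genes, among them PDX1 and NEUROD1, which are MODY genes.

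Most of these factors were lower in S64F/+ islets of both sexes, and none was called higher, a call that 15.3% of all genes had in males and 10.2% in females. In males, 8 of the 10 fell, against 12.3% of all genes tested that were called lower, and in females 8 of the 10 fell, against 11.0% (edgeR quasi-likelihood test, Benjamini-Hochberg adjusted over all 18364 genes, threshold 0.05). Mnx1 fell by 62.3% in males and fell by 66.1% in females, and Pdx1 fell by 47.6% in males and fell by 53.5% in females, the largest falls of the 10. Isl1 was not called in either sex, Rfx6 was not called in males and Neurod1 was not called in females. The median log2 fold change of the 10 was -0.47 in males and -0.39 in females, beside -0.03 and 0.02 over all genes tested. The ranges of the S64F/+ and WT libraries were apart for 8 of the 10 in males and for 6 of the 10 in females. How many of all genes tested had ranges apart was not counted, so these counts have no background. The genotype effect of none of the 10 was called different between the sexes, where 4.47% of all genes were.

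**Figure D1:**
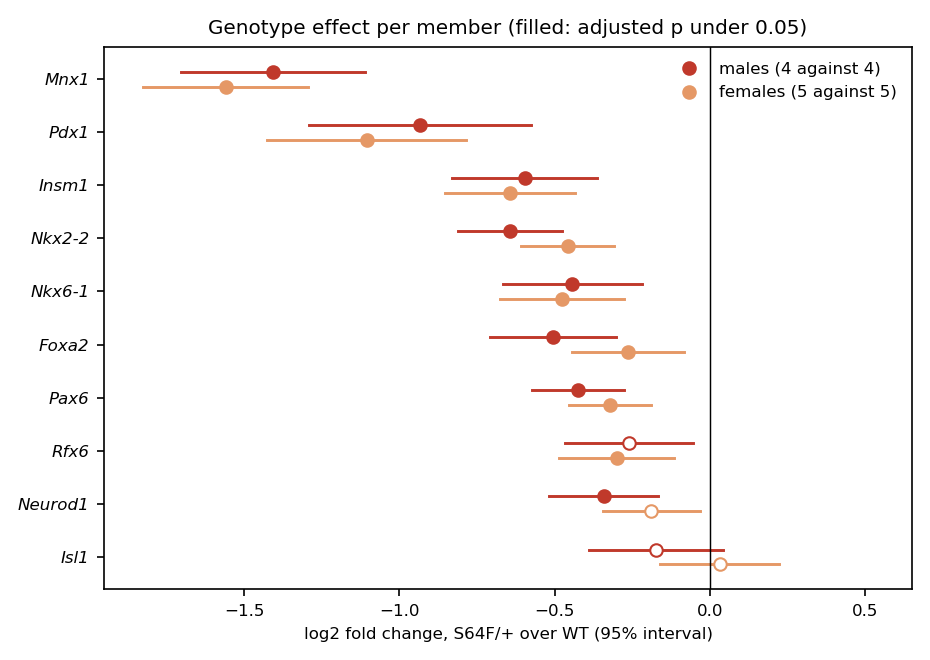
The log2 fold change of S64F/+ over WT is plotted on the x axis for each member, with its 95% interval, in males (dark) and in females (light). Filled points passed the edgeR adjusted p threshold of 0.05 (8 in each sex), and Mnx1 and Pdx1 lie farthest below 0 in both sexes.

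Library totals ran from 19.3 to 108.7 M counts, with a median of 42.4 M, and a member had between 238 and 104721 counts in a library. Levels within a gene are given as CPM, counts scaled to a common library size with TMM factors, with the SD over libraries, with n = 4 in the male groups and n = 5 in the female ones. Log2 fold changes carry their SE. Whether the libraries of a group came from different mice is not stated, so the p-values measure only how far these libraries spread. In whole islets, fewer cells of a type and less RNA per cell cannot be told apart. Mafa itself had 267, 203, 147 and 169 CPM in male S64F/+ and 912, 812, 888 and 1008 CPM in male WT libraries, and 239, 164, 104, 139 and 152 CPM in female S64F/+ and 492, 583, 696, 620.3 and 803 CPM in female WT libraries. Markers of beta cells, among them both insulin genes, summed to between 126259 and 307316 CPM in every library, so beta-cell RNA was abundant in all 18.

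Of the genes, 5 lie on chromosome 2 and 3 on chromosome 5 of GRCm38. Mnx1 (ENSMUSG00000001566) is on chromosome 5 at 29473034 to 29478470 on the minus strand, and Pdx1 (ENSMUSG00000029644) is on the same chromosome at 147269959 to 147275848 on the plus strand. Isl1 (ENSMUSG00000042258) is on chromosome 13 at 116298281 to 116309689 on the minus strand. The stretches just before their annotated starts are shown because Mnx1 and Pdx1 carried the largest falls and Isl1 carried none. They come from RefSeq on GRCm38.p6, read 5′ to 3′ on the gene's strand, with E-boxes in capitals (CANNTG, the letters bound by Neurod1 and other basic helix-loop-helix factors).
Mnx1, chr5:29478471-29478720, minus strand: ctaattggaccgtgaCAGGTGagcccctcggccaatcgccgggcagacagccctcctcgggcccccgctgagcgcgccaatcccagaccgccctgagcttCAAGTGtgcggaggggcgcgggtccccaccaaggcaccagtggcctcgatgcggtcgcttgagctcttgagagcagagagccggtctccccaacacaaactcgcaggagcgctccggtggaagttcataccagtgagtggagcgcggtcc
Pdx1, chr5:147269847-147269958, plus strand: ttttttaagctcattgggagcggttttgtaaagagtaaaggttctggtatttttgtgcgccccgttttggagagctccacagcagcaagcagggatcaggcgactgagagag
Isl1, chr13:116309690-116309938, minus strand: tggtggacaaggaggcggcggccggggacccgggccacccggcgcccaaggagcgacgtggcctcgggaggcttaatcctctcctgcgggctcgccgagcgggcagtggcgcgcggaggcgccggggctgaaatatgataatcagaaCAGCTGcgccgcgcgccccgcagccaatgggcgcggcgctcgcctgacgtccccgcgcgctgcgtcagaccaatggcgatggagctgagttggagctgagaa
The Mnx1 stretch held 2 E-boxes, the Isl1 stretch 1 and the Pdx1 stretch 0 in its 112 bases. Pdx1 is cut short there because its RefSeq start lies 138 bases inside the GENCODE gene, and its whole window of 250 bases held 3 E-boxes, all in those 138 bases.

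Windows of 250 bases before a RefSeq start were found for 9 of the 10 genes, 12 windows in all. The search covered both strands. An E-box was in 7 of the 12 windows, against 66.2% of 32851 mouse promoters of the same length. The letters TGCTGA, the half-site of the Maf recognition element, were in 3 of the 12 (of Neurod1, Foxa2 and Nkx6-1), against 16.1% of all. The Nkx6-1 window lies wholly in GENCODE exon bases of that gene. Each Neurod1 half-site, at 44 and 50 bases before the start, lies in the 115 bases of its window that are exonic. The whole T-type and C-type Maf recognition elements, which contain that half-site, were in 1 and 0 of the 32851 promoters, and in 0 of the 12 windows. TAATTA, a homeodomain palindrome, and TGTTTNC, a forkhead motif, were also in none, against 4.84% and 17.8% of all promoters. These matches describe letters in these windows.

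Levels of different genes were compared per length, as CPM per kb of merged GENCODE exons. Nkx6-1 was the highest in every group, at 178 ± 21.1 CPM per kb in male S64F/+ and 242 ± 16.0 in male WT islets, and at 182 ± 12.1 in female S64F/+ and 253 ± 32.3 in female WT islets. Mnx1 was the lowest in every group, at 4.89 ± 0.440 and 13.0 ± 1.16 CPM per kb in male S64F/+ and male WT islets and at 5.69 ± 0.797 and 16.8 ± 3.16 in female S64F/+ and female WT islets. In both WT groups the order was Nkx6-1, Insm1, Pdx1, Neurod1, Nkx2-2, Foxa2, Isl1, Rfx6, Pax6 and Mnx1. Within it Insm1, Pdx1 and Neurod1 overlapped their neighbours, and so did Foxa2, Isl1, Rfx6 and Pax6. The place of Pax6 depends on its merged length of 11694 bases, pooled over 26 annotated transcripts. In CPM without a length, Pax6 averaged 350 in male WT and 361 in female WT islets, against 316 and 325 for Insm1. Pdx1 was at 51.1 ± 2.54 CPM per kb in male S64F/+ islets, where it came after Neurod1 and Insm1, against 97.6 ± 6.25 in male WT islets. In female S64F/+ islets it was at 45.3 ± 14.6 CPM per kb, overlapping Nkx2-2, Isl1 and Foxa2, against 97.5 ± 12.8 in female WT islets. The FPKM values that the authors deposited divide by another length. For Pax6, with 26 annotated transcripts, that length was 45607 bases, 3.90 times the 11694 bases of its merged exons. It was 3.30 times for Rfx6, 2.46 times for Foxa2 and 1.89 times for Mnx1, and equal to the merged exons for Pdx1, Nkx6-1, Neurod1 and Insm1. Ranked by deposited FPKM, Foxa2 stood below Isl1 in both WT groups, and Pax6 below Mnx1 in female WT islets.

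**Figure D2:**
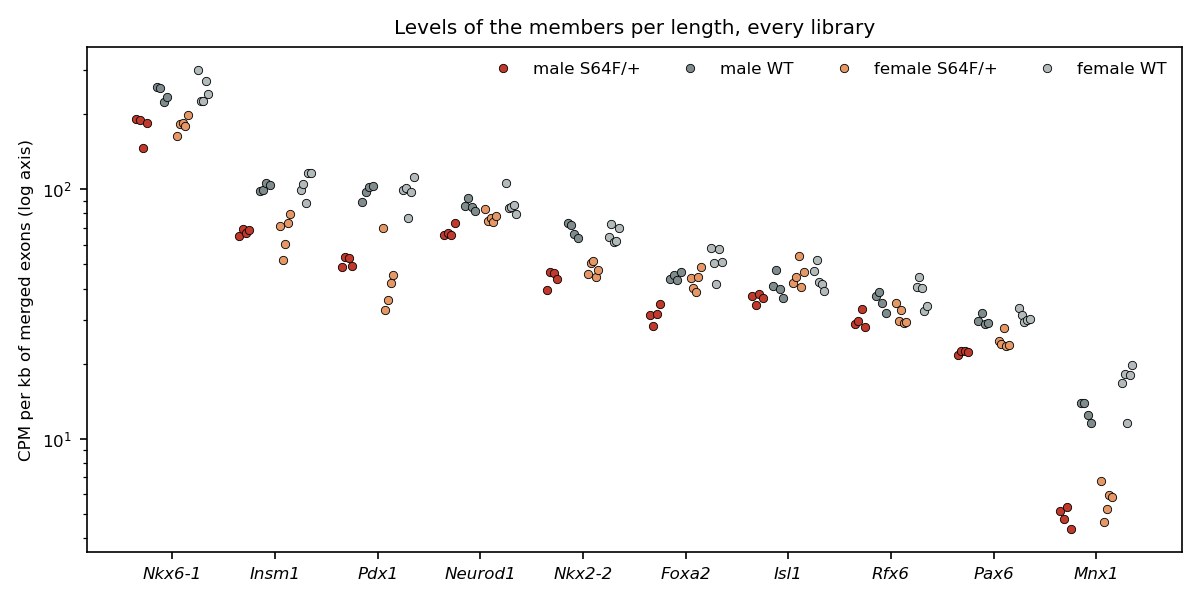
The level of each member in CPM per kb of merged exons is plotted on a log axis, 1 point per library, with the 4 groups side by side. Nkx6-1 is highest and Mnx1 lowest in every group, and the S64F/+ points of Pdx1 and Mnx1 lie below the WT points of the same sex.

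Pdx1 and Mnx1 are homeodomain factors of the early pancreas that stay on in beta cells, where Pdx1 activates the insulin and Slc2a2 genes and Mnx1 holds beta-cell fate. Mnx1 had 11.5, 10.7, 12.0 and 9.75 CPM in male S64F/+ libraries, against 31.4, 31.4, 28.0 and 26.1 CPM in male WT libraries. It had 15.2, 10.5, 11.8, 13.4 and 13.2 CPM in female S64F/+ libraries, against 37.5, 40.8, 25.9, 40.4 and 44.5 CPM in female WT libraries. Every S64F/+ library was below every WT library of its sex. The WT values differed more among females, where the third was the lowest. The group means were 11.0 ± 0.989 CPM in male S64F/+ and 29.2 ± 2.62 CPM in male WT islets, and 12.8 ± 1.79 CPM in female S64F/+ and 37.8 ± 7.11 CPM in female WT islets. The log2 fold change was -1.41 ± 0.14 in males (edgeR adjusted p 1.40e-06) and -1.56 ± 0.13 in females (edgeR adjusted p 1.83e-07). Pdx1 had 105, 116, 115 and 106 CPM in male S64F/+ libraries and 192, 209.6, 219.9 and 221 CPM in male WT libraries. In females it had 151, 70.8, 78.0, 90.9 and 97.7 CPM in S64F/+ and 214, 219, 166, 211 and 242 CPM in WT libraries. Groups did not overlap in either sex, but the first female S64F/+ library was near the lowest WT library and far above the other 4 of its group. That library was also the highest of its group in Mnx1 and in Mafa. Pdx1 averaged 110.3 ± 5.49 CPM in male S64F/+ and 211 ± 13.5 CPM in male WT islets, and 97.7 ± 31.6 CPM in female S64F/+ and 210.4 ± 27.6 CPM in female WT islets. The log2 fold change of Pdx1 was -0.93 ± 0.17 in males (edgeR adjusted p 5.17e-04) and -1.11 ± 0.15 in females (edgeR adjusted p 4.98e-05), and -1.32 in females without that library.

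**Figure D3:**
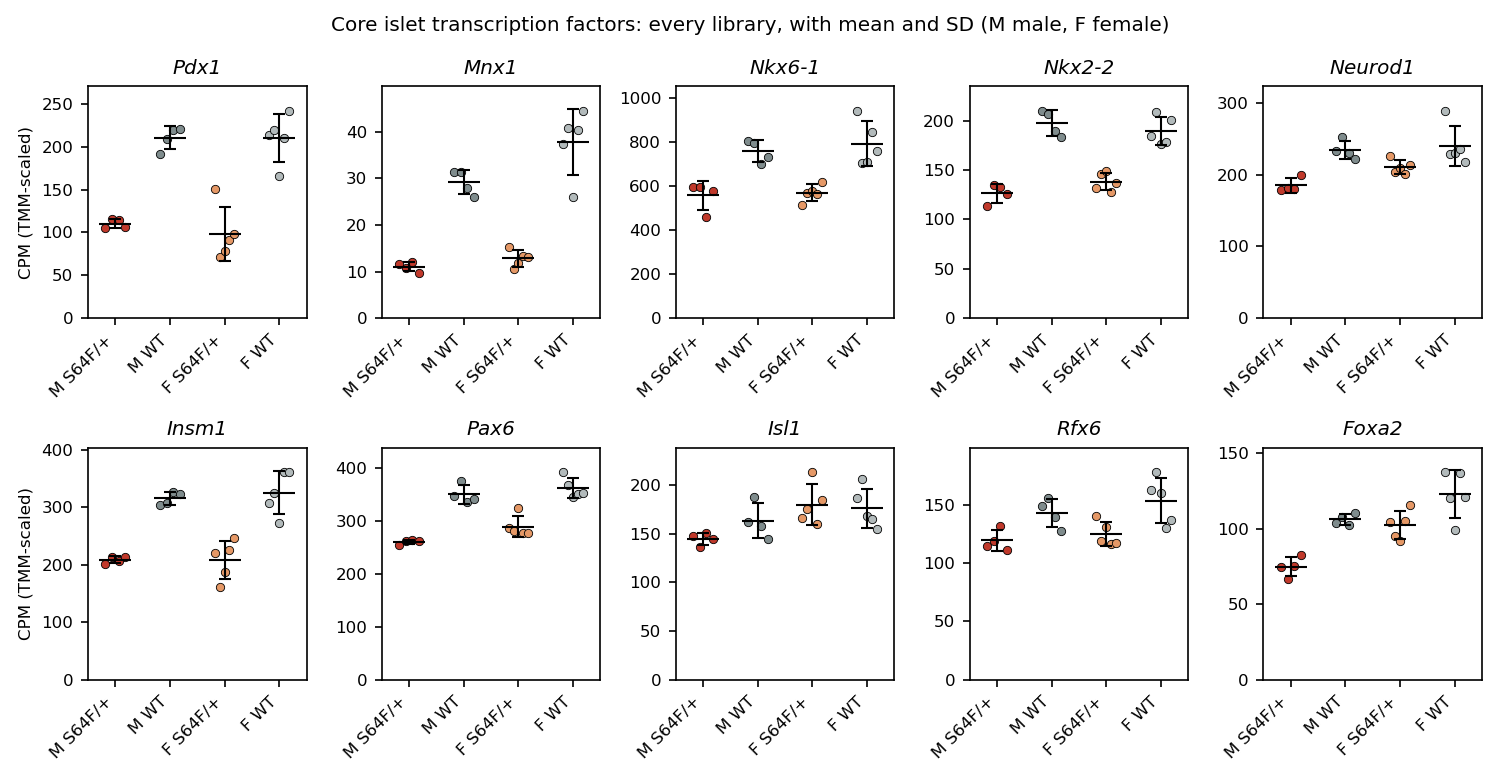
CPM of each member is plotted on the y axis from 0, with 1 point per library and bars for the mean and SD of each group, for male S64F/+, male WT, female S64F/+ and female WT islets. The S64F/+ points of Mnx1, Pdx1, Nkx2-2, Insm1, Nkx6-1 and Pax6 lie below all WT points of the same sex, and those of Isl1 overlap the WT points.

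Nkx6-1 and Nkx2-2 are the NK-type homeodomain factors of the islet. Nkx6-1 keeps glucagon and other foreign programmes off in beta cells, and Nkx2-2 does so together with Groucho corepressors. Nkx2-2 had 113, 134, 132 and 126 CPM in male S64F/+ libraries, against 209.8, 207, 189.7 and 183 CPM in male WT libraries. In females it had 132, 146, 148, 128 and 137 CPM in S64F/+ and 185, 208, 177, 178 and 200.3 CPM in WT libraries. All S64F/+ values lay below all WT values in both sexes. The log2 fold change was -0.64 ± 0.08 in males (edgeR adjusted p 1.20e-05) and -0.46 ± 0.07 in females (edgeR adjusted p 1.51e-04). Nkx6-1 had 597, 596, 459.6 and 579 CPM in male S64F/+ and 804, 798, 701 and 733 CPM in male WT libraries. Among females it had 514, 570.3, 580.0, 563 and 620.4 CPM in S64F/+ and 942, 707, 708, 848 and 758 CPM in WT libraries. Groups were again apart, and the third male S64F/+ library was low within its group. Its log2 fold change was -0.44 ± 0.11 in males (edgeR adjusted p 0.00443) and -0.48 ± 0.10 in females (edgeR adjusted p 0.00162).

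Neurod1, a basic helix-loop-helix factor that binds the insulin promoter, and Insm1, a zinc-finger factor of endocrine differentiation, act after Neurog3 in the forming islet. Insm1 had 201, 214, 207 and 213 CPM in male S64F/+ libraries, against 305, 308, 327 and 323 CPM in male WT libraries. In females it had 220.1, 162, 187, 226 and 246 CPM in S64F/+ and 308, 325, 273, 361 and 361 CPM in WT libraries. The male groups were tight and far apart, and the female groups were wider but did not overlap. Insm1 had a log2 fold change of -0.60 ± 0.11 in males (edgeR adjusted p 5.87e-04) and -0.64 ± 0.10 in females (edgeR adjusted p 1.44e-04). Neurod1 had 179, 182, 179.5 and 199.98 CPM in male S64F/+ and 233, 252, 231 and 223 CPM in male WT libraries. For females the values were 227, 203, 209, 201 and 214 CPM in S64F/+ and 289, 228, 230.5, 236 and 217 CPM in WT libraries. The male groups were apart, whereas in females the first S64F/+ library lay above the lowest WT library. Neurod1 fell in males, by a log2 value of -0.34 ± 0.08 (edgeR adjusted p 0.00485), and in females it was -0.19 ± 0.07 (edgeR adjusted p 0.0796), or -0.22 with an adjusted p of 0.0437 without the first S64F/+ library.

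Pax6 and Isl1 are made by all islet endocrine cells. Pax6, a paired-domain and homeodomain factor, activates hormone genes, and Isl1, a LIM-homeodomain factor, acts in a complex with Ldb1. Pax6 had 254, 262, 263 and 261 CPM in male S64F/+ libraries, against 347, 375, 336 and 340.4 CPM in male WT libraries. In females it had 287, 279.9, 324, 276 and 277 CPM in S64F/+ and 391, 368, 344, 350.2 and 352 CPM in WT libraries. No S64F/+ library reached a WT library of its sex, and the third female S64F/+ library came nearest. Pax6 had a log2 fold change of -0.43 ± 0.07 in males (edgeR adjusted p 2.15e-04) and -0.32 ± 0.06 in females (edgeR adjusted p 0.00133). Isl1 had 147, 136, 150.1 and 145 CPM in male S64F/+ and 162, 188, 158 and 145 CPM in male WT libraries. It had 166, 175, 213, 160.0 and 184 CPM in female S64F/+ and 186, 206, 168, 165 and 154 CPM in female WT libraries. The groups overlapped in both sexes, and the highest Isl1 value of all 18 libraries was in a female S64F/+ library, the third. The log2 difference was -0.17 ± 0.10 in males (edgeR adjusted p 0.225), with a 95% interval of -0.39 to 0.04, and 0.03 ± 0.09 in females (edgeR adjusted p 0.847), with an interval of -0.16 to 0.22.

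Rfx6, a winged-helix factor, and Foxa2, a forkhead pioneer factor of the endoderm, both keep genes of glucose sensing and secretion active in beta cells. Foxa2 had 74.3, 66.8, 74.95 and 82.3 CPM in male S64F/+ libraries, against 104, 108, 102 and 110.3 CPM in male WT libraries. In females it had 104, 95.3, 91.6, 105 and 115 CPM in S64F/+ and 137, 120.3, 98.9, 137 and 121 CPM in WT libraries. The male groups were well apart, and the female groups overlapped through the third WT library. Foxa2 had a log2 fold change of -0.51 ± 0.10 in males (edgeR adjusted p 7.21e-04) and -0.26 ± 0.09 in females (edgeR adjusted p 0.0357). The female call was lost without any one of WT 1, 2, 4 and 5 or S64F/+ 2, 3 and 4, with adjusted p from 0.0525 to 0.120. Rfx6 had 115, 119, 132 and 112 CPM in male S64F/+ and 149, 156, 140.1 and 128 CPM in male WT libraries. Female values were 140.4, 119, 132, 117 and 118 CPM in S64F/+ and 163, 178, 161, 131 and 137 CPM in WT libraries. The Rfx6 groups overlapped in both sexes. Its log2 fold change was -0.26 ± 0.10 in males (edgeR adjusted p 0.0565) and -0.30 ± 0.09 in females (edgeR adjusted p 0.0201), 2 values of like size on either side of the threshold. The male value passed without male WT 4 (adjusted p 0.0403), male S64F/+ 3 (0.0419), female WT 2 (0.0438), female WT 4 (0.0404) or female S64F/+ 1 (0.0453). The female value missed the threshold without female WT 1 (0.0520), WT 2 (0.0631), S64F/+ 2 (0.0527) or S64F/+ 4 (0.0526).

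The effect of the genotype was compared between the sexes by the interaction, the male minus the female log2 fold change. It ran from -0.24 ± 0.13 for Foxa2 (edgeR adjusted p 0.257) to 0.17 ± 0.23 for Pdx1 (edgeR adjusted p 0.677). None of the 10 was called, and 0 had an unadjusted p under 0.05, by edgeR, while DESeq2 also called 0. The 95% interval was -0.51 to 0.03 for Foxa2 and -0.30 to 0.65 for Pdx1. Neurod1 passed the threshold in males and missed it in females, but its interaction was -0.15 ± 0.11 (edgeR adjusted p 0.421), and that of Rfx6, which passed in females and missed in males, was 0.04 ± 0.13 (edgeR adjusted p 0.882). Neither gene was thus shown to differ between the sexes in its response.

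Male and female WT islets did not differ detectably in these factors. Of the 10, 0 were called by edgeR, where 2.36% of all genes were, and 0 by DESeq2, while Mnx1 and Foxa2 had an unadjusted p under 0.05, each lower in males. Mnx1 averaged 29.2 ± 2.62 CPM in male WT and 37.8 ± 7.11 CPM in female WT islets, which is -0.37 ± 0.13 in log2 (edgeR adjusted p 0.139). Without female WT 3, the lowest female value, it was -0.48 with an edgeR adjusted p of 0.0213.

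Between male and female S64F/+ islets, Foxa2 and Isl1 were lower in males, 2 of the 10 against 8.12% of all genes called lower. Those 1492 lower calls dropped to 752, 777, 789 and 809 without male S64F/+ 3, 2, 1 and 4, and to 844 and 886 without female S64F/+ 4 and 5. They rose to 2103 without female S64F/+ 1. Foxa2 averaged 74.6 ± 6.33 CPM in male S64F/+ and 102 ± 9.34 CPM in female S64F/+ islets, which is -0.46 ± 0.09 in log2 (edgeR adjusted p 0.0046). Isl1 averaged 145 ± 6.01 CPM in male S64F/+ and 179.8 ± 20.7 CPM in female S64F/+ islets, which is -0.31 ± 0.10 in log2 (edgeR adjusted p 0.0362). The values of both genes were apart between these groups, as were those of Neurod1 (-0.19 ± 0.08, edgeR adjusted p 0.109) and Pax6 (-0.15 ± 0.07, edgeR adjusted p 0.128), which were not called. The Isl1 call was lost without any one of the 4 male libraries (adjusted p 0.0643 to 0.0934), without female 3 (0.0757) and without female 5 (0.0694). Pdx1 went the other way, at 0.17 ± 0.16 (edgeR adjusted p 0.473), and without the high first female library it was 0.39 and called (edgeR adjusted p 0.0162). With library-size scaling neither Foxa2 (-0.28, adjusted p 0.0586) nor Isl1 (-0.13, adjusted p 0.490) was called.

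Since Isl1 was the member with no called genotype effect, the other 9 were also set against it inside each library, a ratio that no scaling of libraries can alter. Isl1 was chosen for this after the values were seen, so the ratios are a description with no test. The log2 ratio of Mnx1 to Isl1 counts averaged -3.72 ± 0.12 in male S64F/+ and -2.48 ± 0.09 in male WT libraries, a difference of -1.24. In females it averaged -3.81 ± 0.31 in S64F/+ and -2.23 ± 0.34 in WT libraries, a difference of -1.58. For Pdx1 the differences were -0.76 in males and -1.18 in females. In males the S64F/+ libraries were all below the WT libraries for Mnx1, Pdx1, Nkx2-2 (-0.48), Insm1 (-0.43), Foxa2 (-0.34) and Pax6 (-0.26). In females they were all below for Mnx1, Pdx1, Insm1 (-0.69), Nkx2-2 (-0.49) and Pax6 (-0.36). Nkx6-1 (-0.50) and Rfx6 (-0.33) averaged lower relative to Isl1 in females as well, each with overlap between the groups, as did Foxa2 there (-0.29) and Nkx6-1 in males (-0.28). Rfx6 in males had the smallest difference of the 18, -0.09. Neurod1 averaged -0.17 in males and -0.22 in females relative to Isl1, also with overlap.

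**Figure D4:**
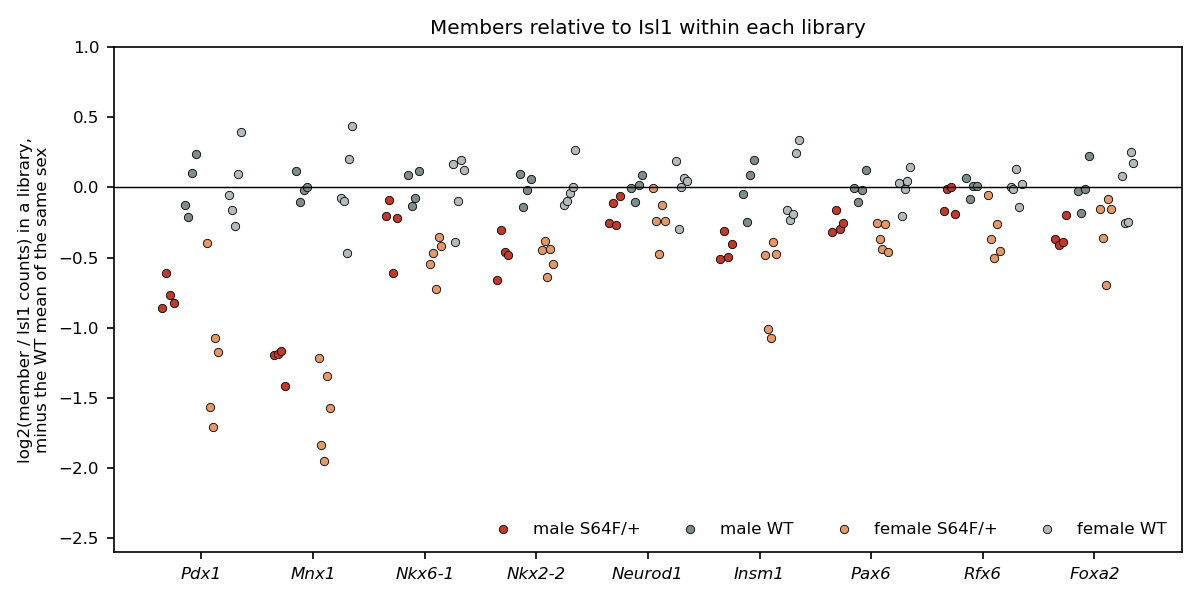
The log2 ratio of each member's counts to those of Isl1 in the same library is plotted on the y axis, less the mean of the WT libraries of the same sex, with 1 point per library. The S64F/+ points of Mnx1, Pdx1, Nkx2-2, Insm1 and Pax6 lie below the WT points in both sexes.

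The size of the male falls depended on how libraries were scaled, and the median of all genes moved with the scaling. In males that median was 0.22 higher on the log2 scale with library-size scaling and 0.26 higher with scaling by 10 pan-endocrine secretory genes such as Chga and Cpe than with TMM, and in females it moved by -0.02 and -0.01. With TMM those 10 secretory genes had a median log2 fold change of -0.20 in males, where 3 fell and 0 rose. In females it was 0.04, where 3 fell and 2 rose. Their summed level was 24186 to 27433 CPM in male S64F/+ and 30367 to 34608 CPM in male WT libraries. All-gene calls in males were 2818 higher and 2252 lower with TMM, 4245 and 668 with library-size scaling and 4893 and 553 with pan-endocrine scaling. Members called lower in males numbered 8 with TMM, 5 with library-size scaling and 4 with pan-endocrine scaling. Mnx1, Pdx1, Nkx2-2 and Insm1 were called in males under all 25 settings tried, with log2 fold changes between -1.46 and -1.15, -0.98 and -0.67, -0.68 and -0.39, and -0.62 and -0.33. Nkx6-1, Neurod1 and Pax6 lost the male call under both of these scalings and Foxa2 under pan-endocrine scaling, while Isl1 in males was 0.04 and 0.08 under them. Taken relative to the median of all genes, the 10 had a median of -0.45 in males under TMM, library-size and pan-endocrine scaling alike, with all 10 below the median gene. A change of scaling shifts all genes by nearly the same amount, and subtracting the median removes that shift. The likeness across scalings was thus fixed in advance and is no check on the falls. In females Mnx1, Pdx1, Nkx6-1, Nkx2-2, Insm1 and Pax6 were called under all 25 settings.

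**Figure D5:**
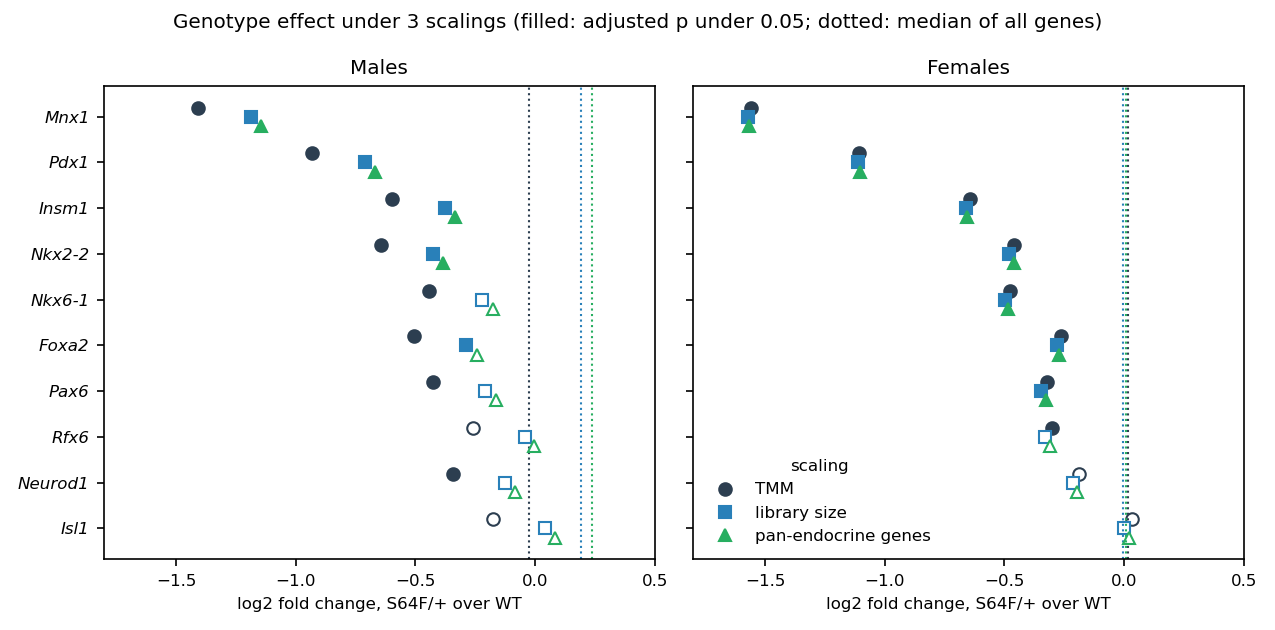
The log2 fold change of S64F/+ over WT is plotted for each member under TMM, library-size and pan-endocrine scaling, in males (left) and females (right), with filled points for an adjusted p under 0.05. Dotted lines mark the median of all genes, which lies 0.22 and 0.26 higher in males under library-size and pan-endocrine scaling, and the members move with it.

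Markers of other cells moved with the genotype in the same libraries, where 15.3% of all genes rose and 12.3% fell in males. In females 10.2% of all genes rose and 11.0% fell. In males 7 of 8 stellate-cell markers rose, with a summed level of 1328 to 2117 CPM in S64F/+ and 132 to 394 CPM in WT libraries, and 6 of 8 endothelial markers rose, at 871 to 996 CPM in S64F/+ and 455 to 631 CPM in WT libraries. Of the others in males, 4 of 7 macrophage, 4 of 6 ductal, 3 of 6 Schwann-cell, 3 of 4 delta-cell, 2 of 8 alpha-cell and 0 of 2 PP-cell markers rose. The male counts of endocrine markers depended on the scaling, and with library-size and pan-endocrine scaling alike 7 of 8 alpha-cell, 4 of 4 delta-cell and 2 of 2 PP-cell markers rose. Under these scalings 4245 and 4893 of all 18364 genes rose in males. A replicate block, which paired male libraries by number too, called 6 of 6 Schwann-cell markers in males, where 2923 of all 18364 genes rose. In females all 8 alpha-cell markers rose, with 59808 to 82924 CPM in S64F/+ and 34116 to 42396 CPM in WT libraries. All 4 delta-cell markers also rose there, with 6043 to 8189 CPM in S64F/+ and 2719.8 to 4200.1 CPM in WT libraries, as did both PP-cell markers, 3 of 7 macrophage markers and 1 of 6 ductal markers. With the replicate block 3 of 4 delta-cell and 1 of 2 PP-cell markers were called in females, where 1830 of all 18364 genes rose. Of the beta-cell markers 8 of 10 fell in males, with a summed level of 126259 to 140595 CPM in S64F/+ and 211348 to 288773 CPM in WT libraries. In females 7 of 10 fell, but the sums overlapped, at 131990 to 244258 CPM (median 203339) in S64F/+ and 166628 to 307316 CPM (median 183330) in WT libraries. None of the listed markers was at 0 in every library of a group. The part of these cells in the levels of the 10 factors was not tested.

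Among tested genes, 5 overlap a member and 3 more lie within 5 kb of one. Plut, the antisense gene of Pdx1 that starts inside it, had a log2 fold change of -1.08 ± 0.24 in males (edgeR adjusted p 0.0026) and -0.56 ± 0.21 in females (edgeR adjusted p 0.067). Gm27033, a lincRNA 4.87 kb from Pdx1 on its strand, was lower at -0.86 ± 0.17 in males (edgeR adjusted p 9.26e-04) and -0.93 ± 0.15 in females (edgeR adjusted p 2.74e-04). Pax6os1, antisense to Pax6, was also lower in both, at -1.03 ± 0.16 in males (edgeR adjusted p 8.87e-05) and -0.69 ± 0.14 in females (edgeR adjusted p 0.00162). Elp4, 3.66 kb from Pax6 on the other strand, was lower in males, at -0.31 ± 0.09 (edgeR adjusted p 0.0105), and in females it was 0.03 ± 0.08 (edgeR adjusted p 0.842). Both genes that overlap Nkx2-2 lie on the other strand. Nkx2-2os shares 278 exon bases with it and was -0.19 ± 0.45 in males (edgeR adjusted p 0.79) and -0.06 ± 0.40 in females (edgeR adjusted p 0.939), and 6430503K07Rik was 0.21 ± 0.18 (edgeR adjusted p 0.428) and 0.01 ± 0.16 (edgeR adjusted p 0.97). Cerkl, which overlaps Neurod1 on the same strand with 201 shared exon bases, was -0.04 ± 0.14 in males (edgeR adjusted p 0.885) and -0.52 ± 0.13 in females (edgeR adjusted p 0.00636). The lincRNA 9030622O22Rik, 2.67 kb from Foxa2, went the other way at 0.77 ± 0.18 in males (edgeR adjusted p 0.00333) and 0.32 ± 0.16 in females (edgeR adjusted p 0.166). Plut, Pax6os1 and 6430503K07Rik overlap a member but share 0 annotated exon bases with it. The strand setting of the counting is not given in the sources used here. Reads over the exon bases that Nkx2-2 shares with Nkx2-2os may thus not have been told apart. Those over the exon bases that Neurod1 shares with Cerkl cannot be told apart by strand under any setting.

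Pairs of members had a Pearson r of log2 CPM over the 18 libraries from -0.02 for Pdx1 with Isl1 to 0.94 for Pdx1 with Insm1, with a median of 0.75 over the 45 pairs. These libraries span both genotypes, and as deviations from the group means the median over pairs was 0.12. Among 9708 genes at 10 CPM or more on average, the genes whose pattern over the 18 libraries was most like that of Mnx1 were Galnt18 (r 0.979) and Tenm3 (r 0.975), and for Pdx1 they were Nectin3 (r 0.968) and Gpr158 (r 0.968). For Nkx2-2 they were Sncb (r 0.946) and Slc35d3 (r 0.943), for Nkx6-1 Pex26 (r 0.938) and Gcgr (r 0.919), for Insm1 Snph (r 0.950) and Wls (r 0.949), and for Pax6 Defb1 (r 0.970) and Slitrk6 (r 0.959). For Neurod1 they were Inpp4a (r 0.889) and Appl2 (r 0.883), for Foxa2 Ppp1r37 (r 0.948) and Ptbp1 (r 0.943), for Rfx6 Pwwp2a (r 0.891) and A330023F24Rik (r 0.863), and for Isl1 Metap1d (r 0.862) and Snhg20 (r 0.851). The 2 genes most like Isl1 had log2 fold changes of -0.05 and -0.33 in males and 0.01 and 0.14 in females. Those most like Mnx1 had -1.31 and -1.21 in males and -1.46 and -1.55 in females. These genes were picked by likeness over libraries of both genotypes. A fold change near that of the member thus follows largely from the choice and is no separate result.

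Of 17 cofactors that bind or serve the members, 5 fell and 0 rose in males, and 8 fell and 0 rose in females. Of all genes tested, 12.3% fell and 15.3% rose in males, and 11.0% fell and 10.2% rose in females. Tle3, a Groucho corepressor that binds Nkx factors, had a log2 fold change of -0.63 ± 0.10 in males (edgeR adjusted p 1.72e-04) and -0.68 ± 0.09 in females (edgeR adjusted p 3.17e-05). Kdm1a, the histone demethylase LSD1 that Insm1 recruits, averaged 96.1 ± 3.91 CPM in male S64F/+ and 126 ± 3.40 CPM in male WT islets, and 108 ± 4.54 CPM in female S64F/+ and 130.1 ± 8.92 CPM in female WT islets. Its log2 fold change was -0.39 ± 0.06 in males and -0.27 ± 0.06 in females. Ldb1 and Ssbp3, partners of Isl1, were at -0.23 ± 0.08 and -0.20 ± 0.07 in males and -0.23 ± 0.07 and -0.23 ± 0.06 in females. Hdac1 fell in males (-0.32 ± 0.09), and Dnmt3a (-0.63 ± 0.12) and Chd4 (-0.44 ± 0.12) fell in females. The genotype effect of 0 of the 17 was called different between the sexes, where 4.47% of all genes were. A fall given here for 1 sex was thus not shown to differ from the other sex. In males 1 of the 17 was called lower with library-size scaling and 0 with pan-endocrine scaling, under which Ssbp3 stood at 0.02 and 0.07 and Ldb1 at -0.01 and 0.03. Of all 18364 genes, 668 and 553 were called lower in males under these scalings, against 2252 with TMM. The female count was 5 with library-size scaling, 4 with pan-endocrine scaling, 4 without the filter on low counts, 3 with the 2 groups alone and 5 without female S64F/+ 2. All-gene lower calls in females were 1522, 1405, 1475, 1348 and 1530 in these fits, in the same order, against 2015 in the main fit. Genes tested numbered 33562 without the filter, 17285 with the 2 groups alone and 18401 without female S64F/+ 2. Ssbp3 in females was lost with pan-endocrine scaling (edgeR adjusted p 0.0959), without the filter (0.0636) and with the 2 groups alone (0.0596), and Chd4 with the 2 groups alone (0.0582). The male count was 3 without male WT 1 or 3, male S64F/+ 2, 3 or 4, or female S64F/+ 2, and Ldb1 and Ssbp3 each lost the male call in 7 of the 18 fits that lacked a library. In the fits with a male count of 3, 1791 to 2042 of all genes were called lower in males.

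Of 18 reported target genes of the members, 9 fell and 1 rose in males, and 8 fell and 3 rose in females, while library-size and pan-endocrine scaling each gave 8 that fell and 3 that rose in males. With TMM 12.3% of all genes fell and 15.3% rose in males, and 11.0% fell and 10.2% rose in females. With library-size and pan-endocrine scaling 668 and 553 of all 18364 genes fell in males, and 4245 and 4893 rose. Pcx, the pyruvate carboxylase of beta cells, had 83.3 ± 5.74 CPM in male S64F/+ and 196 ± 15.4 CPM in male WT islets, which is -1.23 ± 0.12 in log2 (edgeR adjusted p 1.33e-06), and it stood at -1.10 ± 0.11 in females (edgeR adjusted p 1.39e-06). Slc2a2, the glucose transporter GLUT2 that Pdx1 activates, was at -0.75 ± 0.12 in males and -0.64 ± 0.10 in females. Ero1lb, an oxidase of insulin folding, was at -0.72 ± 0.11 and -0.62 ± 0.09, and Glp1r, the incretin receptor, at -1.61 ± 0.27 and -1.81 ± 0.25 in males and females. Ucn3, a peptide of mature beta cells, was at -1.50 ± 0.11 in males and -0.54 ± 0.10 in females. Ins1 fell in males (-1.16 ± 0.20), Pcsk1, the proinsulin convertase, rose in both sexes (0.45 ± 0.12 in males and 0.69 ± 0.11 in females), and Gcg, the glucagon gene of alpha cells, rose in females (1.00 ± 0.13). The genotype effect of 2 of the 18 was called different between the sexes, where 4.47% of all genes were. A change given for 1 sex is not by itself a difference between the sexes. Ins1, Slc2a2, Ucn3 and Glp1r also count among the beta-cell markers above, and Gcg among the alpha-cell markers, so these changes are not separate from those counts. The median of the list was -0.46 in males and -0.35 in females, beside -0.03 and 0.02 over all genes.

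Of 30 other islet transcription factors tested, 8 rose and 5 fell in males, and 10 rose and 6 fell in females. Among all genes 15.3% rose and 12.3% fell in males, and 10.2% rose and 11.0% fell in females. In males 14 rose and 3 fell with library-size scaling and with pan-endocrine scaling alike, with a median log2 fold change of 0.38 and 0.42. Under these scalings 4245 and 4893 of all 18364 genes rose in males, and 668 and 553 fell. Tshz1 fell like the members, at 92.8 ± 2.70 CPM in male S64F/+ and 164 ± 4.90 CPM in male WT islets (log2 fold change -0.82 ± 0.08, edgeR adjusted p 1.11e-06) and at -0.56 ± 0.07 on the log2 scale in females. Hhex, the homeobox gene of delta cells, rose by 0.98 ± 0.17 in males and 1.03 ± 0.15 in females. Irx2, an alpha-cell homeobox gene, rose in females by 0.80 ± 0.12, and Etv1, an ETS factor, by 0.75 ± 0.09 there. Sox9, a factor of ducts and progenitors, rose in males by 2.03 ± 0.24, and Gata6 by 0.88 ± 0.15. Hhex, Irx2 and Sox9 also count among the delta-cell, alpha-cell and ductal markers that moved in these libraries. The genotype effect of 1 of the 30 was called different between the sexes, where 4.47% of all genes were, so a rise given for 1 sex is not by itself a sex difference. The median of the list was 0.16 in males and -0.02 in females.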

How the data were processed

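RNA of islets from 18 samples in 4 groups was sequenced paired-end with 150-nucleotide reads, and samples had an RNA integrity number above 8.0, per the labels' protocols. The authors deposited a raw count per gene and library, and the submitters' processing notes name GRCm38, STAR, featureCounts, FastQC, MultiQC and DESeq2 without versions. Strand setting and treatment of multi-mapped reads were not found in those notes. The FPKM values the authors deposited were checked only. For all 33562 genes with a count they gave, with the count and the library total, 1 length per gene within 0.001 bases of a whole number. Taken as whole bases, that length was exactly the sum of exon lengths over all GENCODE M21 transcripts of the gene in 94.5% of 33491 annotated genes, so a gene with many transcripts gets a low FPKM, and levels between genes were set on merged exons instead.

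The main test was edgeR 4.0.16 with limma 3.58.1 in R 4.3.3 (filterByExpr with minimum count 10 and minimum total 15, TMM scaling, robust quasi-likelihood fit with 1 coefficient per group over all 18 libraries). P-values were two-sided and adjusted by Benjamini-Hochberg over 18364 genes in each contrast, with a threshold of 0.05. The model was tested on simulated data. Alternatives were library-size scaling, scaling by pan-endocrine genes, DESeq2 1.42.0, no filter, the 2 groups alone, a replicate block and leaving out each library. Those for the genes around the members and for the ratio to Isl1 were added after the data had been seen. Promoters came from RefSeq on GRCm38.p6, which held 9 of the 10 members.

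The members and gene lists were chosen with earlier results of these data known. Named genes were the 10 members and Mafa, up to 5 called genes with the smallest p per list and genotype contrast, tested genes within 5 kb of a member, and the 2 genes most like each member. Replicates of a group differed by more than sampling noise (chi-square per degree of freedom at least 21.7) and correlated at 0.960 to 0.988. The groups share replicate numbers. Female libraries with the same number deviated together (r of 0.110 to 0.418 in the 5 pairs, criterion 0.1), so a pairing by number was considered, on the data alone. Libraries with different numbers were not compared in this way, so the likeness cannot be credited to the numbers. The main fit has no block, and the blocked fit is given where it changes a call. In males the correlations were -0.249 to 0.189 and did not meet the criterion in all pairs. The blocked fit still used the numbers in both sexes, so its male results rest on a pairing that was not shown.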

Additional observations from a re-analysis of the deposited data

Results flagged for a closer look

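In 4 of the 40 combinations of a member and a group, 1 library stood far from the others of its group, and chance flags about 1 in 20 such groups. Nkx6-1 was low in male S64F/+ 3, at 459.6 CPM, where the other 3 libraries lay between 579 and 597 CPM. Neurod1 was high in male S64F/+ 4, at 199.98 CPM, where the next library had 182 CPM, and in female WT 1, at 289 CPM, where the next had 236 CPM. Pax6 was high in female S64F/+ 3, at 324 CPM, where the next had 287 CPM. The first female S64F/+ library, at 151 CPM of Pdx1 against at most 97.7 CPM in the others of its group, was not far enough out by the same measure. None of these libraries was needed for the genotype call of the gene concerned in males, or for the Pax6 call in females.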

How the results depend on the processing

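Of the 10 members, 4 in males and 6 in females were called under all 25 settings. Members called in males numbered 5 with library-size and 4 with pan-endocrine scaling (8 with TMM), and 8 to 9 when 1 library was left out. Females gave 6 to 9, the interaction 0, the WT sex contrast 0 to 1 (1 without female WT 3), and the S64F/+ sex contrast 1 to 3. In that contrast 0 were called with library-size scaling, 1 with pan-endocrine scaling and 1 without the filter. A replicate block, whose numbers were not shown to pair libraries, gave 9 calls in males, 8 in females and 0 in the interaction. Among the members' genotype calls it changed only that of Rfx6 in males, to an edgeR adjusted p of 0.0382, as did DESeq2 (0.0475) and the 2 groups alone (0.0294). Foxa2 in females lost its call with no filter (0.0990) and with the 2 groups alone (0.109), and Rfx6 in females with library-size scaling (0.0787), pan-endocrine scaling (0.1001) and the 2 groups alone (0.0560). All-gene calls moved by over 1.5 times in places. The interaction had 821 calls, 253 without male WT 4 and 1912 with DESeq2, and the WT sex contrast 434 calls, 71 without male WT 4 and 1067 with DESeq2. Females had 3884 calls, or 2587 with the 2 groups alone. S64F/+ sex calls were 1470 higher and 1492 lower, but 2752 and 377 with library-size and 2135 and 360 with pan-endocrine scaling. Interaction calls were 527 higher and 294 lower, but 1031 and 30, and 1433 and 16, under them.

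Several uncalled values changed sign. With library-size scaling Isl1 was 0.0398 in males and -0.00113 in females, and the interaction 0.0553 for Nkx2-2, 0.0847 for Neurod1, 0.140 for Pax6 and 0.0410 for Isl1. The WT sex difference was -0.0541 for Pdx1 and -0.000843 for Nkx2-2, and that in S64F/+ islets 0.157 for Nkx6-1, 0.0545 for Nkx2-2, 0.0345 for Pax6 and 0.117 for Rfx6. With pan-endocrine scaling Isl1 was 0.0846 in males, and the interaction 0.0756 for Nkx2-2, 0.112 for Neurod1, 0.163 for Pax6, 0.0620 for Isl1 and 0.0295 for Foxa2. The WT sex difference was then -0.118 for Pdx1 and -0.0605 for Nkx2-2, and that in S64F/+ islets 0.128 for Nkx6-1, 0.0151 for Nkx2-2 and 0.0791 for Rfx6. Without the filter Insm1 was -0.00336 between the sexes in S64F/+ islets. The called cofactors that changed sign in males were Ssbp3 (0.0213 and 0.0652 with library-size and pan-endocrine scaling) and Ldb1 (0.0312 with pan-endocrine scaling). Leaving out 1 library gave interactions of -0.0360 to 0.117 for Nkx6-1, -0.0172 to 0.0934 for Rfx6 and -0.0370 to 0.115 for Insm1, and -0.0362 to 0.0937 for Isl1 in females. The WT sex difference ran from -0.0721 to 0.0568 for Pdx1, -0.102 to 0.00640 for Nkx6-1 and -0.0723 to 0.0407 for Neurod1, and that in S64F/+ islets from -0.0720 to 0.0702 for Insm1 and -0.0640 to 0.0534 for Nkx6-1. The cause of these changes was not tested.

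Mnx1 has the lowest counts of the 10 and the widest counting error. Groups of 4 and 5 libraries limit all comparisons, and whole islets mix cell types.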
